A study of Bubalus bubalis with 6 samples.

Results

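Elastic fibres and the fibronectin network are the parts of the extracellular matrix that let a tissue stretch and give its cells a first scaffold to hold on to. Fibronectin is secreted as a dimer, bound by integrins and pulled into fibrils, and many later matrix proteins are laid down on these fibrils. Fibrillins assemble into microfibrils, on which elastin is deposited with the help of fibulins before lysyl oxidases crosslink it. In skeletal muscle, fibronectin is also a component of the niche of the muscle stem cell, and fibroblasts of the connective tissue are a main source of the elastic fibre proteins.

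The 10 genes described here encode fibronectin (FN1), elastin (ELN), the fibrillins FBN1 and FBN2, the microfibril-associated protein MFAP5 and the fibulins FBLN1, FBLN2, FBLN5, EFEMP1 and EFEMP2. They were taken from the gene table by symbol, from a list drawn up with earlier results of these data known. Each symbol matched 1 row of the gene table, so that the set is 10 of 24616 listed genes. All 10 had at least 10 counts over the 6 samples and were among the 15576 genes tested, and none overlaps another listed gene in position.

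The cells were primary muscle stem cells (MuSCs) of the water buffalo, Bubalus bubalis, taken from fetal longissimus muscle. Proliferating cells in growth medium with fetal bovine serum were labelled GM (3 samples), and cells moved near confluence to differentiation medium with a low level of horse serum were labelled DM (3 samples). No genotype or other treatment separates the groups, and the medium, the serum and the stage of the culture changed together, so that their effects cannot be told apart. The labels do not say whether the samples were separate cultures, so the p-values measure only the spread between these samples, which may be technical.

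Polyadenylated RNA was sequenced, and between 35615864 and 40305237 reads per sample were counted on genes. The value given for each sample is its CPM, the count relative to the library total after trimmed mean of M-values (TMM) normalization. A gene was called when its absolute log2 fold change exceeded 1 and its adjusted p was under 0.05 in the quasi-likelihood test of edgeR. DM replicate 3 stood apart from the other DM samples: a chi-square of its counts over genes, divided by the degrees of freedom, was 40.5 and 41.4 against them, and 11.7 between DM replicates 1 and 2. Values without that sample are given beside some of the results that it moved.

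The matrix genes moved mainly upward in DM. FN1, FBLN2, FBLN5, ELN and MFAP5 rose, which makes 5 of 10 genes called higher, while 15.0% of all tested genes were called higher. FBN1, FBLN1 and EFEMP2 had higher values in DM and an adjusted p under 0.05, but a change below the fold threshold. With the adjusted p alone, 8 of 10 genes were higher, against 31.6% of all tested genes in that direction and 31.4% in the other. FBN2 and EFEMP1 did not pass the test. None of the 10 was called lower by edgeR (10.3% of all tested genes), 0 were lower at an unadjusted p under 0.05, and DESeq2 called 0 lower. The median log2 fold change of the 10 genes was 1.17, beside 0.03 for all tested genes. In 8 of them every DM sample lay above every GM sample, a pattern found in 34.5% of all tested genes, and in 0 the DM samples lay below, found in 34.3%.

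**Figure D1:**
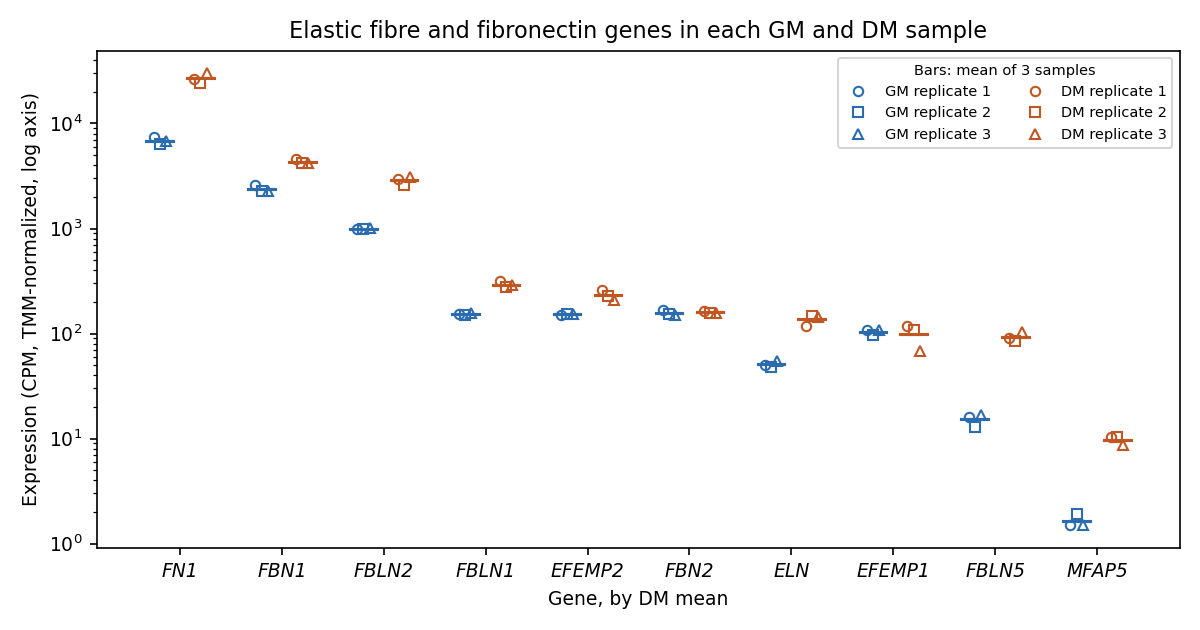
Expression of the 10 genes in each sample, as TMM-normalized CPM on a log axis, with genes ordered by their DM mean. Open symbols are single samples of GM (blue) and DM (orange), and bars are means of 3 samples. The groups overlap for FBN2 and EFEMP1 and are apart for the other 8 genes, and DM replicate 3 of EFEMP1 lies at 68.0 CPM, below all other samples of that gene.

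FN1 encodes fibronectin, the fibril-forming ligand of integrins. Its expression was 7417, 6311 and 6823 CPM in GM samples and 26442, 24249 and 30014 CPM in DM samples. All DM samples were well above the GM samples, with DM replicate 3 the highest. The gene rose 3.93-fold (95% confidence interval 3.41 to 4.52, adjusted p = 3.52e-08 in edgeR). Without DM replicate 3 the log2 fold change was 1.90, beside 1.97 with all samples.

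FN1 also set the size of the whole group in the libraries. Reads on the 10 genes made up 1.21, 1.05 and 1.12% of all gene counts in GM samples and 3.33, 3.15 and 3.71% in DM samples. FN1 alone took 0.769, 0.651 and 0.706% of all counts in GM and 2.51, 2.38 and 2.91% in DM. Within the 10 genes its share was 63.6, 62.0 and 63.3% in GM and 75.4, 75.7 and 78.5% in DM, so that the other 9 genes together held a smaller part of these reads in every DM sample than in any GM sample. The exact (Clopper-Pearson) 95% intervals reach at most 0.006 percentage points to either side of a share of all counts and 0.148 for the share within the 10 genes. They cover counting error only. FN1 lies at chr2:103881402-103950562 on the minus strand in the authors' table, which gives no genome build for this or any other position printed here.

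The microfibril genes split into 1 fibrillin with higher values in DM, 1 that overlapped between groups, and a low-level gene that rose. FBN1 encodes fibrillin-1, the main structural protein of microfibrils (chr10:61877808-62142171, plus strand). It was measured at 2607, 2265 and 2299 CPM in GM and at 4595, 4204 and 4167 CPM in DM. Every DM sample was above every GM sample. The difference was 1.81-fold (95% interval 1.61 to 2.03) with an adjusted p of 2.62e-06 in edgeR, and its log2 value of 0.85 stayed under the threshold of 1, which its interval of 0.69 to 1.02 includes.

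FBN2 encodes fibrillin-2, a microfibril protein that is more prominent in embryonic tissue (chr7:26697477-26917267, plus strand). Its values were 165.7, 152 and 149 CPM in GM and 163, 158 and 157 CPM in DM. The DM samples fell within the range of the GM samples. The log2 fold change was 0.04 (95% interval -0.10 to 0.17, adjusted p = 0.632 in edgeR), and it was -0.06 when samples were scaled by library size alone, so its sign is not given by these data. The interval leaves room for a change of up to 1.13-fold upward or 0.932-fold downward.

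MFAP5 encodes a small glycoprotein of microfibrils that binds fibrillins (chr5:101647629-101659377, plus strand). It had 62, 80 and 57 counts in GM samples and 347, 375 and 323 counts in DM samples, or 1.64 ± 0.245 against 9.75 ± 0.884 CPM (SD, n = 3). The groups were far apart, at a low level in both. MFAP5 rose 5.93-fold (95% interval 4.57 to 7.69, adjusted p = 3.57e-07 in edgeR), with the widest interval among the genes called.

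ELN encodes tropoelastin, the soluble monomer of the elastic core (chr25:33787889-33820672, minus strand). Its expression was 50.4, 47.6 and 54.6 CPM in GM and 118, 145 and 145 CPM in DM. DM replicate 1 was the lowest of the DM samples and still above all GM samples. ELN rose 2.67-fold (95% interval 2.32 to 3.08, adjusted p = 3.35e-07 in edgeR).

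Among the short fibulins, which bind tropoelastin and direct its deposition or crosslinking, the 3 genes had 3 different outcomes. FBLN5, needed for elastic fibre assembly and a ligand of integrins (chr21:57153110-57246389, minus strand), gave 15.9, 12.9 and 16.9 CPM in GM and 91.2, 84.9 and 102 CPM in DM. No DM sample came near the GM range. FBLN5 rose 6.10-fold (95% interval 5.15 to 7.23, adjusted p = 1.92e-08 in edgeR), a change that its interval does not separate from that of MFAP5. Without DM replicate 3 the log2 fold change of MFAP5 was the higher of the pair, at 2.65 beside 2.54.

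EFEMP2, also called fibulin-4, brings lysyl oxidase to elastin (chr29:44650628-44657896, minus strand). It was measured at 149, 154 and 152 CPM in GM and at 260, 228 and 207 CPM in DM. The GM samples were nearly equal, and the DM samples were spread more widely, all above them. The difference of 1.52-fold (95% interval 1.34 to 1.72, adjusted p = 6.97e-05 in edgeR) did not reach the fold threshold.

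EFEMP1, also called fibulin-3 (chr11:38338744-38408288, minus strand), was at 107, 95.9 and 109 CPM in GM and at 117, 109 and 68.0 CPM in DM. DM replicates 1 and 2 lay at or just above the GM range, whereas DM replicate 3 was at 0.602 of their mean, the lowest such ratio of the 10 genes. The log2 fold change was -0.09 (95% interval -0.45 to 0.27, adjusted p = 0.663 in edgeR). Without DM replicate 3 it turned to 0.13 (adjusted p = 0.131 in edgeR), so that 1 sample decided its direction.

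The long fibulins, found in elastic fibres, basement membranes and fibronectin-rich matrix, both had higher values in DM. FBLN2 (chr22:58990282-59038424, minus strand) was at 986, 986 and 1019 CPM in GM and at 2964, 2583 and 3101 CPM in DM. The samples of each group lay close together beside the gap between the groups. FBLN2 rose 2.89-fold (95% interval 2.58 to 3.25, adjusted p = 4.97e-08 in edgeR).

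FBLN1 (chr5:116616200-116695692, plus strand) was at 154, 151 and 156 CPM in GM and at 314, 276 and 288 CPM in DM. Every DM sample exceeded the GM samples. The difference was 1.90-fold (95% interval 1.72 to 2.10, adjusted p = 5.35e-07 in edgeR), and its log2 value of 0.93 (95% interval 0.78 to 1.07) was just short of the threshold.

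**Figure D2:**
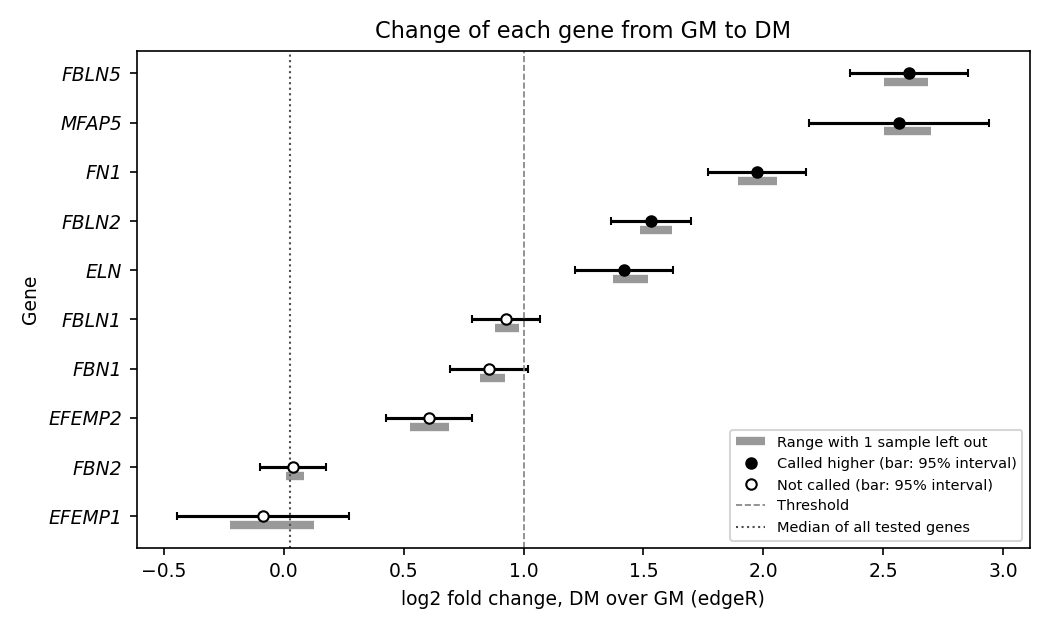
Log2 fold change of each gene, DM over GM, from edgeR. Black bars are 95% intervals, grey bars are the range of the estimate with 1 sample left out, filled points are genes called higher, the dashed line is the threshold of 1 and the dotted line is the median of all tested genes at 0.03. FBLN5 at 2.61 and MFAP5 at 2.57 lie farthest to the right, and the grey bar of EFEMP1 crosses 0.

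Leaving out any 1 of the 6 samples left the same 5 genes called, and no others of the 10. In each of these fits FN1 stayed between 1.90 and 2.06, FBLN5 between 2.50 and 2.69, MFAP5 between 2.50 and 2.70, FBLN2 between 1.48 and 1.62 and ELN between 1.37 and 1.52 on the log2 scale.

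Levels of different genes were compared per length, as RPKM, which divides the count by the gene's length and the library total. In GM, FN1 had the highest level at 851 ± 70.7 RPKM (SD, n = 3), which placed it 106th of all listed genes. FBLN2 at 282 ± 5.46 and FBN1 at 276 ± 22.4 RPKM followed with overlapping samples. EFEMP2, FBLN1 and EFEMP1 came next, between 52.2 and 76.7 RPKM, then ELN at 19.5 ± 1.37, FBN2 at 14.1 ± 0.824, FBLN5 at 6.25 ± 0.851 and MFAP5 at 1.91 ± 0.280 RPKM. Other than FBLN2 and FBN1, neighbours in this order did not overlap.

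In DM the order had changed in the middle. FN1 was at 3122 ± 330 RPKM, the 13th highest of all listed genes, and FBLN2 at 760 ± 64.1 RPKM now stood clear of FBN1 at 467 ± 18.4 RPKM. FBLN1 at 119.6 ± 5.78 and EFEMP2 at 109 ± 11.1 RPKM overlapped, in the opposite order to GM. ELN at 48.9 ± 6.39, EFEMP1 at 45.9 ± 12.1 and FBLN5 at 35.6 ± 3.33 RPKM formed a run in which neighbours overlapped. FBLN5 had passed FBN2, which was at 13.5 ± 0.145 RPKM, and MFAP5 remained last at 10.6 ± 0.955 RPKM.

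**Figure D3:**
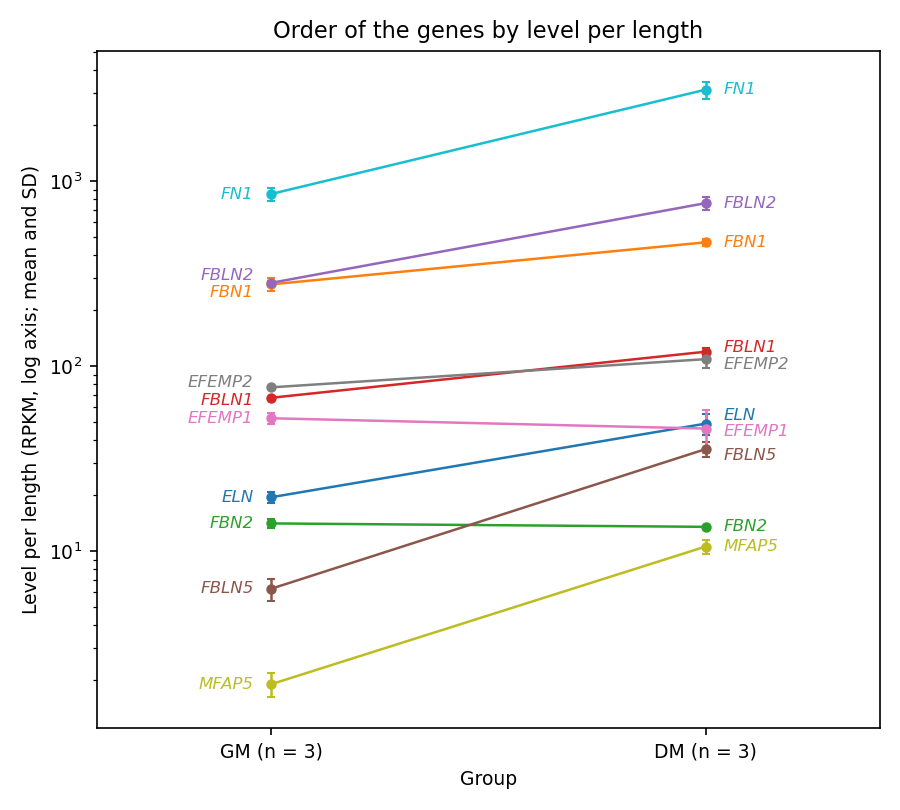
Level of each gene per length, as RPKM on a log axis, in GM and DM. Points are means and error bars are SD over 3 samples. FN1 is highest in both groups, and the line of FBLN5 crosses that of FBN2.

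Ratios between related genes within a sample do not depend on how samples are scaled to each other. Of 4 ratios compared, none had overlapping groups, and each gave p = 0.1 in the exact two-sided permutation test, before and after Benjamini-Hochberg adjustment over the 4. With 3 samples against 3 this is the smallest p the test can give, so none can pass 0.05. Single genes were often apart too: every DM sample lay above every GM sample in 34.5% of all tested genes and below in 34.3%. The ratios follow from the levels of the genes given above, and the share of all gene pairs with such a gap was not computed. The ratio FBN1/FBN2, per length, was 20.1, 19.0 and 19.6 in GM and 35.9, 33.9 and 33.8 in DM. Fibrillin-1 transcripts thus outnumbered fibrillin-2 transcripts in every sample and did so by more in each DM sample. The difference of the mean log2 ratio was 0.82.

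Both fibulin ratios were lower in DM. FBLN1/FBLN2 was 0.243, 0.238 and 0.237 in GM and 0.164, 0.166 and 0.144 in DM, a log2 difference of -0.60. EFEMP1/EFEMP2 was 0.715, 0.618 and 0.711 in GM and 0.448, 0.477 and 0.327 in DM, a log2 difference of -0.72. DM replicate 3 had the lowest value of both ratios, and without it the differences were -0.54 and -0.56. The ratio FN1/ELN was 47.6, 42.9 and 40.4 in GM and 72.5, 54.0 and 67.0 in DM, with a log2 difference of 0.56.

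**Figure D4:**
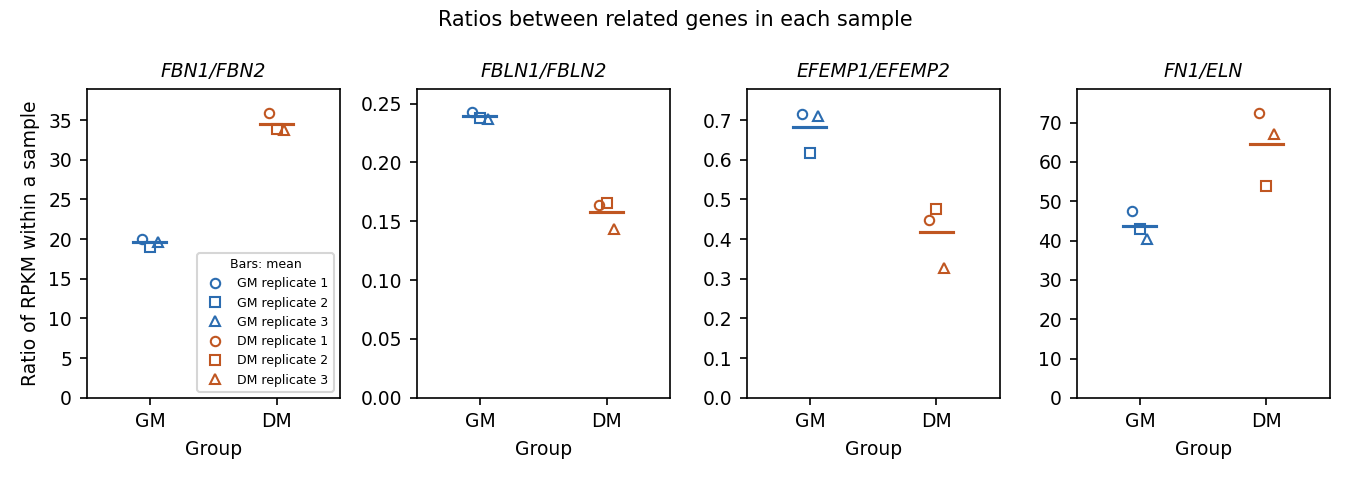
Ratios of RPKM between related genes in each sample, 1 panel per ratio, each axis starting at 0. Open symbols are single samples of GM (blue) and DM (orange) and bars are means of 3 samples. FBN1/FBN2 and FN1/ELN are higher in all DM samples, while FBLN1/FBLN2 and EFEMP1/EFEMP2 are lower in all of them.

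At the transcript level, 13 mRNAs are listed for the 10 genes, and 8 genes have a single one. The test on mRNA counts called 7 of the 13 higher, while 15.5% of all 16352 tested mRNAs were called higher. With edgeR 0 were called lower and 0 were lower at an unadjusted p under 0.05, and DESeq2 called 0 lower. A read that falls on several transcripts of a gene was counted on each of them, so these counts repeat those of the genes. FBN2 has transcripts of 11250 and 940 bases, with log2 fold changes of 0.02 and -0.05, neither of them called.

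FN1 has transcripts of 7698, 8055 and 8328 bases, a gene known for alternative splicing of its pre-mRNA. All 3 rose, with log2 fold changes of 2.01, 1.97 and 1.95. The counts listed for the longest transcript minus those for the middle one, which is 273 bases shorter, were 4944, 4148 and 4098 in GM and 8027, 8163 and 8312 in DM. As a share of FN1 counts they were 1.61, 1.58 and 1.58% in GM and 0.899, 0.920 and 0.748% in DM, or 1.59 ± 0.0147% against 0.856 ± 0.0935% (SD, n = 3). Their number was higher in every DM sample, and their share of the gene was lower.

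The middle transcript minus the shortest, 357 bases shorter again, gave 9.30, 9.51 and 9.64% of FN1 counts in GM and 6.60, 6.88 and 7.25% in DM. The means were 9.48 ± 0.169% and 6.91 ± 0.328% (SD, n = 3). For both shares every DM sample lay below every GM sample (exact two-sided permutation test, p = 0.1, the smallest possible with 3 samples against 3). Both comparisons were chosen after the counts had been seen. The tables do not name the exons in which these transcripts differ, and a change in read coverage along the transcript was not tested.

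**Figure D5:**
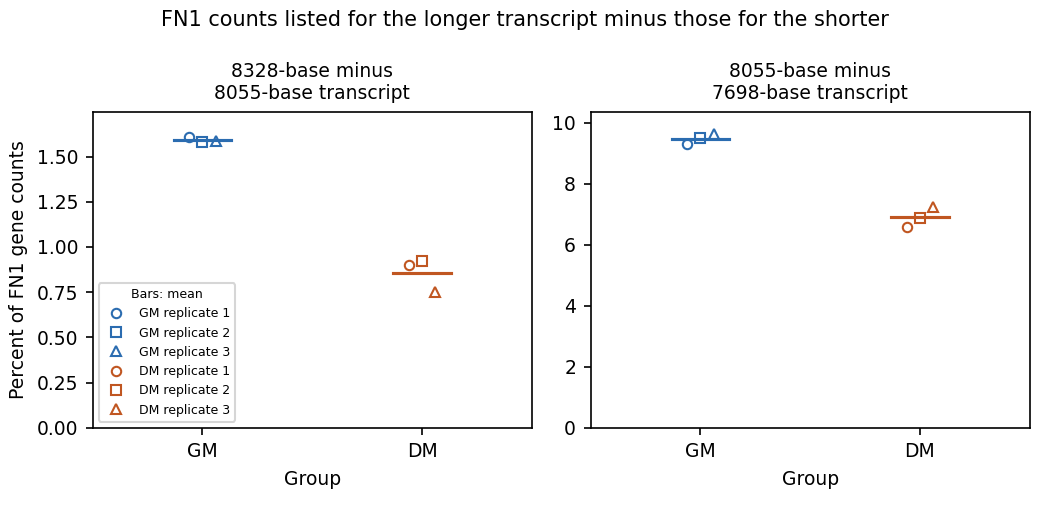
FN1 counts listed for a longer transcript minus those for the next shorter one, as a percentage of FN1 gene counts in each sample. Open symbols are single samples, bars are means of 3 samples, and both axes start at 0. The DM samples lie below the GM samples in both panels, at 0.748 to 0.920% against 1.58 to 1.61% in the left one.

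Of the other genes of elastic fibres, 24 of 25 on the list (microfibril partners, latent TGF-beta binding proteins, emilins, lysyl oxidases, ADAMTS proteins, versican and the elastin receptor subunit GLB1) are in the table. Of these 8 were called higher and 3 lower, with 13 not called and a median log2 fold change of 0.70. Over all tested genes the calls were 15.0% higher and 10.3% lower, so the lower calls of the list are near that share. ADAMTSL2, a microfibril-binding protein, rose the most, by 3.89 on the log2 scale, from 13, 8 and 6 counts in GM to 103, 114 and 144 in DM. MFAP4, which binds elastin and fibrillin, rose from 14.0 ± 0.727 to 83.5 ± 20.9 CPM (SD, n = 3).

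Of the 3 genes that fell, 1 was abundant and 2 had few counts. EMILIN1, an elastin-associated glycoprotein, fell from 537 ± 52.4 to 247 ± 43.0 CPM (log2 fold change -1.12, adjusted p = 1.03e-05 in edgeR), and its estimate was between -1.26 and -1.02 with 1 sample left out. It was named after its values were seen. EMILIN3, an elastin-interface protein, fell from 41, 60 and 32 counts to 1, 1 and 12, a log2 fold change of -3.05, or -5.11 without DM replicate 3. FBN3, the third fibrillin, had 26, 7 and 11 counts in GM and 1, 6 and 0 in DM. Its call, at a log2 fold change of -2.42 (adjusted p = 0.0366 in edgeR), was lost without DM replicate 1, GM replicate 1 or GM replicate 3, with adjusted p-values of 0.110, 0.172 and 0.0584.

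Genes that act with the members described above were read from the same list after their values were seen. LTBP4, a latent TGF-beta binding protein that works with FBLN5 in elastic fibre assembly, rose from 69.8 ± 2.59 to 350 ± 8.52 CPM. Of the lysyl oxidases, LOXL2 rose from 835 ± 33.0 to 2645 ± 252 CPM. LOXL4 was also called higher, with a log2 fold change of 1.81 beside 1.66 for LOXL2. The order turned without DM replicate 3, at 1.61 for LOXL4 and 1.65 for LOXL2. LOXL3 was not called, with a log2 fold change of 0.04. LOX, which crosslinks elastin, was at 320 ± 13.4 CPM in GM and 535 ± 39.1 CPM in DM, and LOXL1 was at 628 ± 31.7 and 434 ± 74.2 CPM, both short of the fold threshold and in opposite directions. VCAN, the proteoglycan versican, had a log2 fold change of 0.99 and was not called. It passed the threshold without DM replicate 3, at 1.09, and also without GM replicate 1.

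Receptors and assembly factors of fibronectin were called in both directions. Of the 20 genes on that list, 19 are in the table, and 4 were called higher, 2 lower and 13 not called, with a median log2 fold change of -0.06. Both counts are near the 15.0% higher and 10.3% lower of all tested genes. TNS3, a tensin that links integrins to actin, rose from 7.53 ± 0.653 to 52.2 ± 4.18 CPM, and ITGB6, the beta subunit of an integrin that binds fibronectin, rose from 1.87 ± 0.137 to 7.86 ± 0.893 CPM. SDC4, a syndecan that acts with integrins at focal adhesions, fell from 75.0 ± 2.06 to 26.9 ± 3.05 CPM. TNC, tenascin-C, a matrix protein that binds fibronectin, fell from 4231 ± 110 to 2075 ± 616 CPM. The call of TNC was lost without DM replicate 1 or DM replicate 2, at log2 fold changes of -0.92 and -0.87, beside -1.03 with all samples and -1.29 without DM replicate 3.

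The subunits of the main fibronectin receptor, integrin alpha-5 beta-1, did not follow FN1. ITGA5 was at 1338 ± 27.6 CPM in GM and 924 ± 104 CPM in DM, and ITGB1 at 2048 ± 78.4 and 1310 ± 73.7 CPM, with log2 fold changes of -0.53 (adjusted p = 0.000173 in edgeR) and -0.65 (adjusted p = 8.16e-06 in edgeR). In both genes every DM sample lay below every GM sample, as in 34.3% of all tested genes, and neither reached the fold threshold. ITGAV, the alpha subunit of other fibronectin-binding integrins, was at 177 ± 8.74 and 335 ± 9.66 CPM. Every DM sample of ITGAV was above the GM samples, as in 34.5% of all tested genes. Its log2 fold change was 0.92 (adjusted p = 3.77e-07 in edgeR), also below the fold threshold. Of the other integrin genes on the list, ITGA4 and ITGB5 were called higher, with log2 fold changes of 1.31 and 1.12, as was ITGB6, given above. ITGA3 and ITGA8 were not called, at -0.84 and 0.31. Apart from ITGB6, the integrin genes were named after their values were seen.

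Among proteases that cut elastic fibres or fibronectin, 7 of 9 are in the table. Of these 3 were called higher and 4 not called, beside 15.0% of all tested genes called higher. edgeR called 0 lower, 0 were lower at an unadjusted p under 0.05, and DESeq2 called 0 lower. MMP2, a gelatinase, rose from 1525 ± 12.2 to 6713 ± 602 CPM. CTSK, cathepsin K, an elastin-degrading protease, rose by 2.62 on the log2 scale, from 8094, 8432 and 7792 counts in GM to 31747, 29701 and 72722 in DM, and by 2.13 without DM replicate 3. The third was CTSS, cathepsin S, at 1.78 ± 0.466 CPM in GM and 3.58 ± 0.428 CPM in DM. Its log2 fold change of 1.01 was just past the threshold and fell short of it with library size alone, at 0.91, and without DM replicate 2, GM replicate 2 or GM replicate 3, at 0.88 in the lowest of these fits. MMP9, another gelatinase, was at 8.80, 8.56 and 8.12 CPM in GM and at 23.8, 25.5 and 4.46 CPM in DM. Its DM replicate 3 lay below all GM samples. MMP9 was not called at a log2 fold change of 1.08 (adjusted p = 0.0632 in edgeR), and passed the test without DM replicate 3, at 1.54. CTSS and MMP9 were named after their values were seen.

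Cell type markers moved in different directions. Of 10 fibroblast markers, 7 were called higher in DM (PDGFRB, COL1A1, COL1A2, COL3A1, DCN, LUM and THY1), beside 15.0% of all tested genes. For these 10 markers edgeR called 0 lower (10.3% of all tested genes), 0 were lower at an unadjusted p under 0.05 and DESeq2 called 0 lower. Their summed level was 35507 to 36246 CPM in GM and 97786 to 123853 CPM in DM, with DM replicate 3 the lowest of the DM samples. Most of that sum comes from the 3 collagen genes, which muscle stem cells may also express. All 9 listed markers of differentiated muscle were called higher as well, again beside 15.0% of all tested genes. Their sum was 440 to 891 CPM in GM and 6138 to 9044 CPM in DM, where DM replicate 3 was the highest. The stem cell and myoblast markers PAX7 and MYF5 were present in GM at 18.5 ± 0.174 and 143 ± 6.38 CPM and stood at 9.77 ± 3.25 and 22.0 ± 3.34 CPM in DM. Of the 9 genes listed as myoblast markers, 2 were called higher (MYOG and MYF6) and 2 lower (MYF5 and ITGA7). The background shares for all tested genes were 15.0% and 10.3%. By real-time PCR the paper found MYOG, MYOD1 and MyHC to increase in DM. MYOD1 was among the myoblast markers tested here and was called in neither direction.

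All 6 proliferation markers fell, from a sum of 1762 to 1789 CPM in GM to 393 to 469 CPM in DM. Endothelial markers summed to at most 6.13 CPM (1 called higher and 3 lower of 6 tested). Immune markers summed to at most 13.5 CPM (1 higher and 1 lower of 4 tested) and adipocyte markers to at most 8.08 CPM (2 higher of 4 tested). Tendon and cartilage markers (3 higher of 5 tested) summed to at most 28.0 CPM, in DM replicate 3. Beside the calls of these lists, 15.0% of all tested genes were called higher and 10.3% lower. Markers of smooth muscle and pericytes, some of which myogenic cells also express, summed to 4885 to 5221 CPM in GM and 4275 to 5386 CPM in DM. Of these 8 genes edgeR called 0 in either direction, 2 were lower at an unadjusted p under 0.05 and DESeq2 called 0 lower. No listed marker was at 0 in all samples. The part of fibroblasts in the rise of the matrix genes was not tested, and in bulk RNA more cells of a type and more RNA per cell cannot be told apart.

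The genes most like FN1 over the 6 samples, by Pearson's r of log2 CPM among the 8978 genes averaging 10 CPM or more, were C21orf91 (r = 0.9996), MFSD3 (r = 0.9993) and C1QTNF6 (r = 0.9992). The points fall into the GM and DM groups, so that any gene apart between the groups correlates with FN1. C1QTNF6 had a log2 fold change of 2.95, above that of FN1, while C21orf91 and MFSD3 had changes of 0.82 and 0.83.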

How the data were processed

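Raw counts per gene and per mRNA transcript were deposited by the authors without normalization, beside RPKM values that the authors computed from these counts, the deposited gene lengths and the summed counts. Recomputed RPKM matched the deposited values. The methods name HISAT2, the buffalo genome and counting on an annotation, whereas the submitters' processing notes list Bowtie 0.12.2 and mouse builds, and the tables carry cattle Ensembl identifiers and no build. Reads from sequence that differs between buffalo and the annotation used may be missed, which would lower a gene's level in all 6 samples. The ncRNA table and the authors' lists of differentially expressed features, which hold log2 fold changes, p-values and q-values, were not used.

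Genes with at least 10 counts in total were tested with edgeR 4.0.16 in R 4.3.3 (glmQLFit and glmQLFTest, TMM normalization, Benjamini-Hochberg adjustment over all genes tested), 3 DM against 3 GM samples. Intervals come from the standard error and the t distribution of the fit. Counts per sample were between 35615864 and 40305237, which limits precision for MFAP5, FBN3, EMILIN3 and ADAMTSL2. Ratios were compared with exact permutation tests in scipy 1.17.1. The scripts were tested on simulated data.

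The members, lists and tests were chosen with earlier results of these data known. Named from each partner list were at most 2 called genes that rose most and 2 that fell most, and other partner genes were chosen after their values were seen. The fibroblast and muscle markers came from a list of cell type markers. Alternatives were DESeq2 1.42.0, other scalings (library size alone, DESeq2's size factors), other filters (1 count, filterByExpr, and the study's RPKM minimum of 1), calls by the adjusted p alone, edgeR's glmTreat against a 2-fold change, a replicate block and leaving out each sample.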

Additional observations from a re-analysis of the deposited data

How the results depend on the processing

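The count of genes called higher was 5 in every alternative but 1: with the adjusted p alone it was 8, since FBN1, FBLN1 and EFEMP2 passed. Directions turned in 2 cases: FBN2 went to -0.0615 on the log2 scale with library size alone, and EFEMP1 ranged from -0.23 to 0.13 with 1 sample left out, the latter without DM replicate 3. Scaling by library size alone shifted the median of all genes by -0.10 on the log2 scale. With 1 sample left out, the fibronectin list had 1 to 2 genes called lower, the elastic fibre list 8 to 9 called higher and 2 to 3 lower, and the proteases 2 to 4 called higher. The same replicate numbers in GM and DM gave correlations of deviations of -0.022 to -0.008. These show no pairing by number, but with 3 samples per group they cannot exclude it, and the labels do not state any. With the replicate block 5 genes were called higher. Depth limits MFAP5, FBN3, EMILIN3 and ADAMTSL2, whose counts were low in at least 1 group.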
